A study of Mus musculus with 18 samples.

Results

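The genes described here are 10 mouse genes that mark the two-cell-like state: Zscan4c, Zscan4d, Zscan4f, Zfp352, Tcstv1, Tcstv3, Tdpoz3, Tdpoz4, Usp17la and Usp17lc. They were chosen by symbol, by matching the Ensembl identifiers of the count tables to GENCODE vM21, and all 10 were found among the 55471 genes of the tables. Their RNA was measured in the mouse embryonic stem cell line E14 in both genotypes of the study, wild type (Wt) and GCN2-deficient (Gcn). GCN2, the product of Eif2ak4, is a kinase that binds uncharged tRNA when an amino acid runs short. Cells were kept for 3 h without arginine (Arg), for 3 h without leucine (Leu) or in the same medium with all amino acids (Unstarved), which gave 6 groups of 3 libraries, 18 in all. Before that, all cells grew on gelatin with 15% fetal bovine serum and leukemia inhibitory factor at 10 ng/ml. During the 3 h all groups had SILAC medium with 5% dialyzed serum, lysine and leukemia inhibitory factor. The labels do not say whether the Gcn cells are 1 clone or whether the 3 replicates of a group were separate cultures. P-values therefore speak to the spread among these samples alone, which may be technical, and genotype and the history of the line cannot be told apart.

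As background, the mouse embryo switches on its own genome at the two-cell stage, and a characteristic set of genes is transcribed in a short burst. In cultures of embryonic stem cells, a small and changing fraction of cells re-enters a state in which the same genes are on. Dux, listed in this annotation as Duxf3, is a double-homeobox transcription factor at the head of this programme. Dppa2 and Dppa4 act before it, and a range of chromatin repressors restrain it. The Zscan4 proteins carry a SCAN domain and zinc fingers and are known for telomere maintenance in stem cells. Zfp352 encodes a zinc finger protein of the two-cell embryo. Tcstv1 and Tcstv3 belong to the two-cell-stage variable group, Tdpoz3 and Tdpoz4 encode proteins with a TRAF and a POZ domain, and Usp17la and Usp17lc encode deubiquitinating enzymes. Because whole cultures were sequenced, more cells in the state and more RNA per cell in the state cannot be told apart.

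Members of the same family lie on the same chromosome. On build GRCm38, with spans from GENCODE vM21, Zscan4c (ENSMUSG00000054272, 4 exons over all its annotated transcripts) spans 11005745 to 11010547 on chromosome 7, Zscan4d (ENSMUSG00000090714) spans 11161374 to 11166159 and Zscan4f (ENSMUSG00000070828) spans 11397915 to 11402318. These 3 genes lie within 396.6 kb, inside a cluster of 9 Zscan4 genes and pseudogenes of 819.9 kb. Usp17lc (ENSMUSG00000058976, from 103415072 to 103419880) and Usp17la (ENSMUSG00000054568, from 104857009 to 104862667) lie further along the same chromosome. Tdpoz4 (ENSMUSG00000060256, from 93796398 to 93797510) and Tdpoz3 (ENSMUSG00000058005, from 93826020 to 93827117) are single-exon genes on chromosome 3, 30.72 kb from end to end. Tcstv1 (ENSMUSG00000096284, from 119893388 to 119894785) and Tcstv3 (ENSMUSG00000095821, from 120316878 to 120318178) lie on chromosome 13. Zfp352 (ENSMUSG00000070902, from 90218820 to 90225702 on chromosome 4) stands alone.

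RefSeq promoter windows of build GRCm38.p6 were held for 7 members (not for Tcstv1, Tcstv3 or Tdpoz3). The 250 bases before the RefSeq gene start of the Zscan4 and Usp17l genes are shown, 5′ to 3′ on the gene's strand, because these copies moved together in the comparison of genotypes below. The RefSeq starts differ from the GENCODE spans above for 3 of these genes: the Usp17lc window lies inside the GENCODE span of the gene, and the windows of Zscan4d and Usp17la run a few bases into theirs. Capitals mark matches to TATAAA, the letters of a TATA box.
Zscan4c, chr7:11005495-11005744, plus strand: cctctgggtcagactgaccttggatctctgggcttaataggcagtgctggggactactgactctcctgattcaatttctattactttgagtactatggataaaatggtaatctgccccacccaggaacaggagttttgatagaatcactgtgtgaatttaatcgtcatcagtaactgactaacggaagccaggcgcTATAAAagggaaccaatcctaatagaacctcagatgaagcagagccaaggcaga
Zscan4d, chr7:11166149-11166398, minus strand: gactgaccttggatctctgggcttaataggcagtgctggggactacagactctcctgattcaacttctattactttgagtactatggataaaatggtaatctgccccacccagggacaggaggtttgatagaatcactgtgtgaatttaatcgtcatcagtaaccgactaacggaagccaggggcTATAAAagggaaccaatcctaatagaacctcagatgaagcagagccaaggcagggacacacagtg
Zscan4f, chr7:11397665-11397914, plus strand: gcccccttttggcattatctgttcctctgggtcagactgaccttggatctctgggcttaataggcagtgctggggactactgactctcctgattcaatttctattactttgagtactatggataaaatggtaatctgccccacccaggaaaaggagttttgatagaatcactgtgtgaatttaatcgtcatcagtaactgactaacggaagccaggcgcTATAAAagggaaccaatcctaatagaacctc
Usp17lc, chr7:103416446-103416695, plus strand: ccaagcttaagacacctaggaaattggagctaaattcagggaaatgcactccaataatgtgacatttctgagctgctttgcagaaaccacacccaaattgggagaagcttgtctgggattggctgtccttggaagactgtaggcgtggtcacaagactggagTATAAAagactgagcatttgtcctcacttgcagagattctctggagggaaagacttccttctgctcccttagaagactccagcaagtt
Usp17la, chr7:104856766-104857015, plus strand: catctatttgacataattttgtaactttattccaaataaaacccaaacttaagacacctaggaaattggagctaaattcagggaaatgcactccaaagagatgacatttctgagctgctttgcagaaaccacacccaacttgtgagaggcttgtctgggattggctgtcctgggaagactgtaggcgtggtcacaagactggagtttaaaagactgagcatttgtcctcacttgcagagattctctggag

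Over the overlap of their whole 300-base windows, aligned without gaps, Zscan4c and Zscan4f were 99.3% identical, Zscan4d and Zscan4f 97.4%, and Zscan4c and Zscan4d 97.2%. Usp17la and Usp17lc were 82.9% identical. TATAAA, searched on both strands, occurred in 4 of the 7 member windows (the 3 Zscan4 genes and Usp17lc) and in 13.6% of 32851 RefSeq windows of the same length. Counted from the RefSeq start, it lay from base -54 to -49 before Zscan4c, from -65 to -60 before Zscan4d, from -31 to -26 before Zscan4f and from -88 to -83 before Usp17lc. These matches are descriptions of letters and are not evidence of binding.

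Single short reads tell these genes apart to very different degrees. The libraries had 2 reads per fragment, but windows were compared singly, so placement by read pairs was not assessed. Of all windows of 43 bases (the read length) in the annotated transcripts, 89.7% were found in no other gene for Zfp352, 81.7% for Tcstv1, 74.7% for Usp17la and 62.1% for Tcstv3. The share was 50.6% for Usp17lc, 50.3% for Tdpoz4, 45.8% for Zscan4d and 30.3% for Tdpoz3. It was 12.3% for Zscan4c and 11.7% for Zscan4f. Zscan4f held 66.9% of the windows of Zscan4c, whereas Tdpoz3 and Tdpoz4 had none in common and shared their windows with other genes, among them Tdpoz1. The rule by which reads with several matches were counted is not given in the sources used here, so single Zscan4, Tcstv, Tdpoz and Usp17l genes are uncertain. The listed members of each family were also summed and tested as 1 gene. Such a sum does not settle windows shared with genes outside it. Windows also found in a gene of another name were 69.7% for Tdpoz3, 49.7% for Tdpoz4 and 35.1% for Tcstv3. Usp17lc held 5.9% of the windows of Usp17la, and 41.9% of its own lay only in genes of the Usp17l name.

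**Figure D1:**
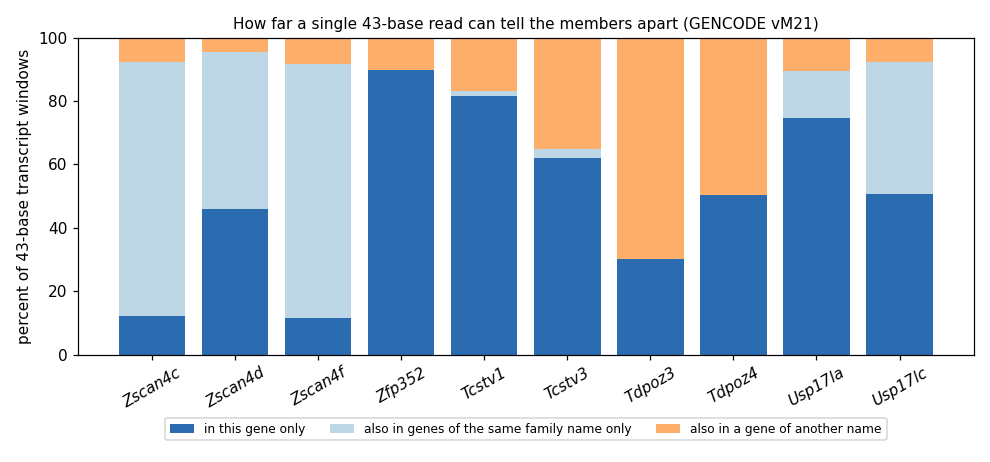
Percent of the 43-base windows in the annotated transcripts of each member (bars, y axis from 0 to 100) that occur in that gene only, in genes of the same family name, or in a gene of another name. Zfp352 is the most distinct with 89.7% of windows of its own, and Zscan4f the least with 11.7%.

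Library totals ran from 14.8 M (mega) to 38.8 M counts. CPM below are counts per M after TMM scaling (trimmed mean of M values) over the 18 libraries. Eif2ak4, the targeted gene, stood at 27 to 33.2 CPM in the 9 Wt libraries and at 4.06 to 6.28 CPM in the 9 Gcn libraries, with no overlap. The summed level of 8 stem cell markers was 6353 to 7682 CPM in Wt and 7314 to 8988 CPM in Gcn, none of them under 1 CPM in any group. Of the 8, 3 were higher in Gcn Unstarved than in Wt Unstarved, where 16.6% of all genes tested were higher. They were Nanog (log2 0.85 ± 0.07 SE), Klf4 (0.49 ± 0.10) and Zfp42 (0.48 ± 0.07). The 3 Gcn libraries numbered 1 stood apart on the second principal component of the Gcn libraries (20.1% of the variance), at 18.6 to 21.3 against -14.5 to -5.97 for the other 6.

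Together the 10 genes were a minor share of the transcriptome in every library. Their summed level was 12.9, 16.2 and 17.3 CPM in Wt Unstarved, 11.8, 14.7 and 17 CPM in Wt Arg, and 13, 13.8 and 16.5 CPM in Wt Leu. It was 69.3, 54.1 and 71.6 CPM in Gcn Unstarved, 51.2, 39.5 and 60.5 CPM in Gcn Arg, and 61.9, 47.3 and 75.3 CPM in Gcn Leu. Every Gcn library lay above every Wt library, and the ratio of the group means, Gcn over Wt, was 4.19 unstarved, 3.48 in Arg and 4.27 in Leu.

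Levels per kb of exon are given for the members side by side, and the order of the single Zscan4 genes is uncertain, since they share most or many of their windows to different degrees. Zscan4d had the highest value in Wt Unstarved (2.88 ± 0.34 CPM per kb, SD, n = 3), followed by Zscan4c (1.44 ± 0.25), Tcstv3 (1.10 ± 0.39) and Zscan4f (0.91 ± 0.30), where Tcstv3 overlapped both of its neighbours within 1 SD. Usp17la (0.42 ± 0.13), Tdpoz4 (0.40 ± 0.12), Usp17lc (0.40 ± 0.10) and Tdpoz3 (0.26 ± 0.20) came next, with overlapping intervals of 1 SD, and Zfp352 (0.08 ± 0.02) and Tcstv1 (0.04 ± 0.04) were lowest. In Gcn Unstarved, Zscan4d was again highest (12.1 ± 2.3 CPM per kb), then Zscan4c (5.83 ± 0.79), Tcstv3 (4.86 ± 0.49) and Zscan4f (3.68 ± 0.17). The intervals of Zscan4c and Tcstv3 overlapped. The lower members in Gcn Unstarved were Tdpoz3 (2.05 ± 0.60), Tdpoz4 (1.75 ± 0.32), Usp17lc (1.75 ± 0.29), Usp17la (1.26 ± 0.22), Zfp352 (0.51 ± 0.16) and Tcstv1 (0.22 ± 0.14), and the intervals of the first 4 of these overlapped.

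**Figure D2:**
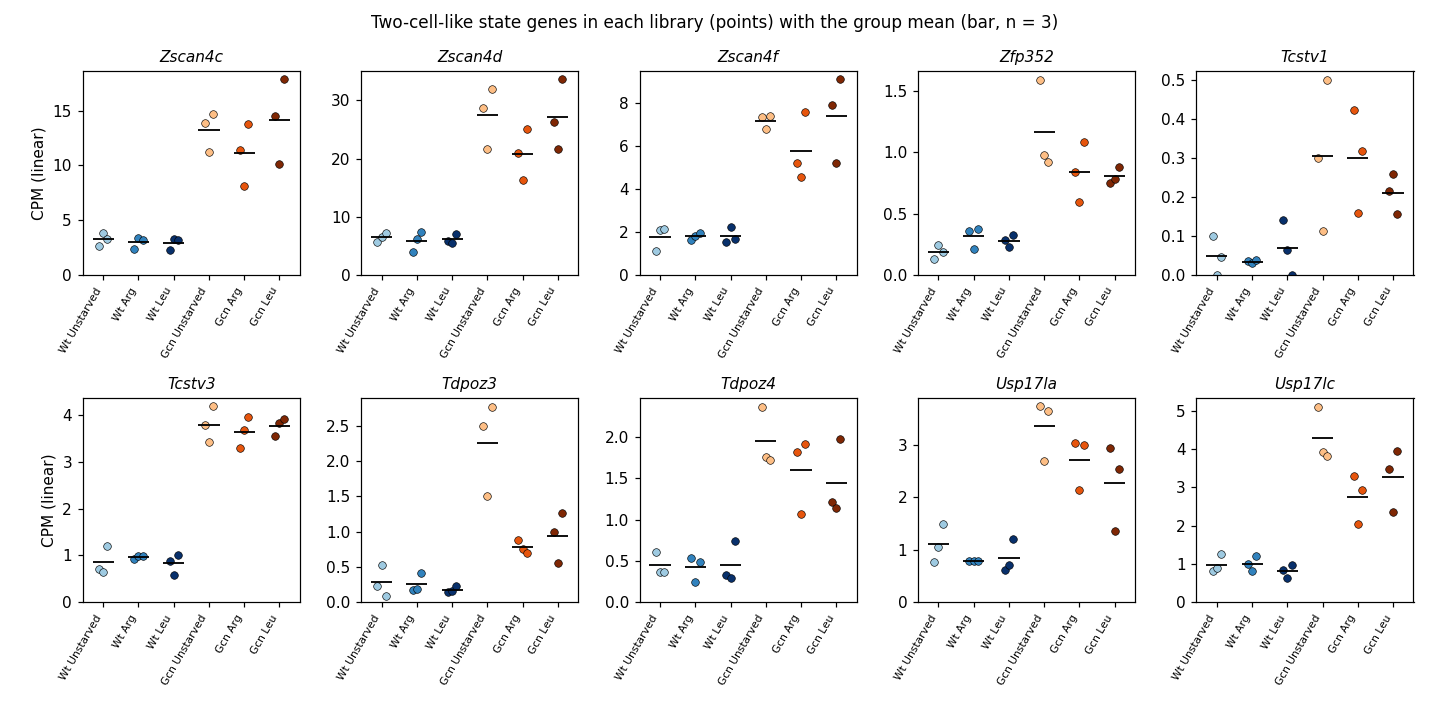
Level of each member (y axis, CPM on a linear scale from 0) in the 6 groups (x axis), with 1 point per library and a bar at the group mean (n = 3). Gcn libraries are orange to brown and Wt libraries blue. Of the 7 members that pass the filter on low counts in Wt too, 6 have all Gcn libraries above all Wt libraries. The exception is Usp17la, and 3.96% of all genes tested are apart in this way. Tcstv1 also overlaps. Zfp352 and Tdpoz3, which passed the filter only through the Gcn libraries, are apart as a description, Tdpoz3 narrowly (0.55 against 0.53 CPM).

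The comparison of unstarved genotypes asks how the cells without GCN2 differed before any starvation. Of the 10 members, 7 passed the filter on low counts also in the Wt libraries alone, and those 7 were higher in Gcn Unstarved than in Wt Unstarved (edgeR quasi-likelihood test, Benjamini-Hochberg adjusted p under 0.05 over the 16924 genes tested), against 16.6% of all genes called higher (16.5% in the fit with family sums) and 32.8% called in either direction. Zfp352 and Tdpoz3 passed the filter only through the Gcn libraries, where they are high, so their values are given below as a description and add nothing to that count. Tcstv1 did not pass the filter. Among the 7, the differences ran from 3.08-fold for Usp17la to 4.48-fold for Tcstv3. CPM of the 3 Gcn Unstarved libraries lay above those of the 3 Wt Unstarved libraries in these 7 (22.6% of all genes tested). The 9 Gcn libraries lay above the 9 Wt libraries in 6 of them (3.96% of all genes tested), the exception being Usp17la.

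The 3 Zscan4 genes differed about equally. Zscan4c stood at 2.7, 3.85 and 3.26 CPM in Wt Unstarved and at 13.8, 11.2 and 14.7 CPM in Gcn Unstarved (log2 2.02 ± 0.23 SE, adjusted p = 1.54e-06, edgeR). Zscan4d stood at 5.77, 6.55 and 7.30 CPM against 28.7, 21.7 and 31.9 CPM (2.07 ± 0.22, adjusted p = 1.97e-06). Zscan4f stood at 1.11, 2.09 and 2.14 CPM against 7.35, 6.82 and 7.43 CPM (2.04 ± 0.24, adjusted p = 1.25e-06). None of these ranges overlapped, and the 3 log2 differences lay within 1 SE of each other. Summed, the 3 genes had 9.58, 12.5 and 12.7 CPM in Wt Unstarved (284, 305 and 273 counts) and 49.9, 39.7 and 54.0 CPM in Gcn Unstarved (1161, 1060 and 1410 counts), a 4.14-fold difference (log2 2.05 ± 0.22, adjusted p = 2.68e-06). With every measured Zscan4 gene and pseudogene in the sum, the log2 difference was 2.04 ± 0.21.

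Zfp352, whose read windows are the least shared of the members, had few counts in Wt. Its counts were 4, 6 and 4 in Wt Unstarved (0.13, 0.25 and 0.19 CPM) and 37, 26 and 24 in Gcn Unstarved (1.59, 0.97 and 0.92 CPM). The groups did not overlap, and the log2 difference was 2.60 ± 0.36 (6.06-fold, adjusted p = 7.95e-06).

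Of the variable group, Tcstv3 stood at 0.71, 0.66 and 1.21 CPM in Wt Unstarved and at 3.78, 3.41 and 4.18 CPM in Gcn Unstarved (4.48-fold, log2 2.16 ± 0.21, adjusted p = 4.48e-08). Tcstv1 was near the limit of detection, with 3, 0 and 1 counts in Wt Unstarved and 7, 3 and 13 counts in Gcn Unstarved. Over all groups it had 0 to 3 counts in Wt libraries and 3 to 13 in Gcn libraries, and its CPM ranges met (0.00 to 0.14 in Wt, 0.11 to 0.50 in Gcn). The Tcstv sum, nearly all of it Tcstv3, was 4.56-fold higher in Gcn (log2 2.19 ± 0.20, adjusted p = 2.94e-08).

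Of the Tdpoz genes, Tdpoz3 had few counts in Wt. It had 7, 13 and 2 counts in Wt Unstarved (0.24, 0.53 and 0.09 CPM) and 58, 40 and 72 counts in Gcn Unstarved (2.49, 1.5 and 2.76 CPM). The log2 difference was 2.93 ± 0.39 (7.60-fold, adjusted p = 5.18e-06). Tdpoz4 stood at 0.61, 0.37 and 0.37 CPM against 2.36, 1.76 and 1.72 CPM (log2 2.06 ± 0.34, adjusted p = 7.77e-05). Neither gene overlapped between the unstarved groups. Their sum was 5.55-fold higher in Gcn (log2 2.47 ± 0.30, adjusted p = 1.99e-06).

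Of the deubiquitinase genes, Usp17la had the smallest difference among the 7 members that pass the filter in Wt too. Only Tcstv3 had a larger difference among them than Usp17lc. However, the log2 differences of Usp17lc, Tcstv3, Tdpoz4 and the Zscan4 genes lay within their SEs of each other. Usp17la stood at 0.78, 1.06 and 1.49 CPM in Wt Unstarved and at 3.74, 2.7 and 3.64 CPM in Gcn Unstarved (log2 1.62 ± 0.28, adjusted p = 0.000103). Usp17lc stood at 0.81, 0.90 and 1.26 CPM against 5.11, 3.93 and 3.83 CPM (log2 2.13 ± 0.24, adjusted p = 5.65e-07). The unstarved groups were apart for both genes. Over all 18 libraries the ranges of Usp17la met, since Gcn Leu 2 (1.36 CPM) lay under Wt Unstarved 3 (1.49 CPM). The Usp17l sum was 3.69-fold higher in Gcn (log2 1.88 ± 0.23, adjusted p = 2.56e-06).

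**Figure D3:**
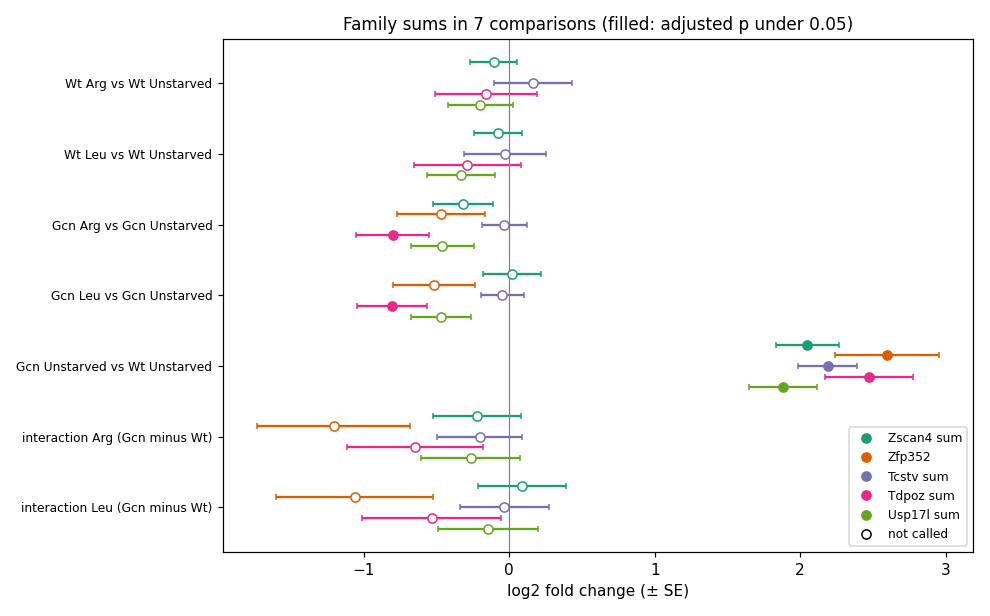
Log2 fold change (x axis, ± SE) of the family sums and Zfp352 in the 7 comparisons (y axis), where filled points have an adjusted p under 0.05 and open points do not. In the comparison of unstarved genotypes the 5 points are filled, from 1.88 for the Usp17l sum to 2.60 for Zfp352. Zfp352 passed the filter there only through the Gcn libraries, as did Tdpoz3, which is part of the Tdpoz sum. The starvation comparisons have filled points only for the Tdpoz sum in Gcn. The fits shown do not use the replicate numbers.

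The genotype difference was also large within each starved medium, where it is given as a ratio of group means with no test. For the Zscan4 sum, Gcn over Wt was 4.13 unstarved, 3.53 in Arg and 4.46 in Leu, and for the Tcstv sum 4.52, 3.95 and 4.43. For the Usp17l sum it was 3.65, 3.04 and 3.34. Ratios moved more in the low genes, from 6.15 unstarved to 2.66 in Arg and 2.90 in Leu for Zfp352, and from 5.70 to 3.48 and 3.78 for the Tdpoz sum. The sum of the fibroblast markers moved the other way with genotype. The summed level of the 8 genes was 16.8 to 26.4 CPM in Wt and 7.07 to 11 CPM in Gcn, and 3 of 5 tested were lower. Means in Wt Unstarved and Gcn Unstarved were 8.20 and 1.76 CPM for Col1a1, 3.53 and 0.68 CPM for Col1a2, and 1.27 and 0.08 CPM for Col3a1. They were 2.33 and 1.61 CPM for Pdgfrb, while Thy1 was not lower (3.94 and 4.31 CPM). Of the trophoblast markers, 3 of 4 tested were lower in Gcn, with summed levels of 35.6 to 58.7 CPM in Wt and 30.7 to 56.1 CPM in Gcn, while primitive endoderm markers (1 of 5 lower) summed to 9.50 to 22.8 and 9.96 to 18.3 CPM. Most of the trophoblast sum was Tfap2c, with means of 42.0 CPM in Wt Unstarved and 39.2 CPM in Gcn Unstarved. In the same groups, means were 7.18 and 0.56 CPM for Krt7, 4.5 and 0.59 CPM for Cdx2, and 1.74 and 0.57 CPM for Hand1. Between the unstarved genotypes 32.8% of all genes tested were called in either direction. The part of these cell types in the difference was not tested. Without the 3 Gcn libraries that stood apart, the 7 members that pass the filter in Wt too were still higher in Gcn. So were the Zscan4, Tcstv and Usp17l sums, and the Tdpoz sum, which rests in part on Tdpoz3.

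Of 40 further genes of the two-cell state, 24 passed the filter also in the Wt libraries alone, and of these 19 were higher and 1 lower in Gcn Unstarved, where 16.6% of all genes tested were higher. Among the 24, Zscan4a, Zscan4b, Zscan4e, the Zscan4 pseudogenes, Usp17lb, Usp17ld, Usp17le and AF067061 share read windows with members. The part of shared reads in their calls was not tested. Another 5 (BC080695, Duxf3, Obox6, Pramef6 and Pramef25) passed only through the Gcn libraries and are not in that count. Zscan4a rose from 7.16 ± 1.60 to 27.7 ± 3.4 CPM (SD, n = 3, log2 1.96 ± 0.20 SE, adjusted p = 6.27e-07). The pseudogenes Zscan4-ps1, Zscan4-ps2 and Zscan4-ps3 were higher by 2.30 ± 0.21, 2.26 ± 0.23 and 2.11 ± 0.18. Usp17lb, Usp17ld and Usp17le were higher by 1.63 ± 0.26, 2.44 ± 0.40 and 1.82 ± 0.25. Among genes outside the member families, Tmem92 (2.14 ± 0.20), Ubtfl1 (2.24 ± 0.29), Obox6, a homeobox gene (1.99 ± 0.52), and Arg2, a mitochondrial arginase (1.64 ± 0.21), were higher. Of the PRAME-like group, Pramef6 (2.94 ± 0.55) and Pramef25 (2.45 ± 0.36) were higher, Pramel6 was lower (-1.16 ± 0.21), and Pramef8 (-0.09 ± 0.10), Pramef12 (-0.14 ± 0.10) and Pramel7 (0.21 ± 0.26) did not pass the test. Zfp750 (0.11 ± 0.19) did not pass it either.

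Of the 4 listed activators of the state, 3 passed the filter in the Wt libraries too and 1 of these, Dppa2, was higher in Gcn Unstarved. Duxf3, which passed only through the Gcn libraries, had 0 to 4 counts in Wt libraries and 4 to 14 in Gcn libraries, and differed by 3.54-fold (log2 1.82 ± 0.51, adjusted p = 0.00761). Dppa2 rose from 62.9 ± 4.8 to 84.4 ± 3.1 CPM (SD, n = 3, log2 0.42 ± 0.08 SE, adjusted p = 0.000247). Dppa4 (0.02 ± 0.10) and Nelfa (0.17 ± 0.09), the other listed activators, did not pass the test. Of 16 repressors, 5 were higher and 1 lower in Gcn Unstarved, 6 called in all, against 32.8% of all genes called in either direction. The higher ones were Rif1, a regulator of replication timing (0.95 ± 0.18), Mga (0.74 ± 0.19), Zmym2 (0.57 ± 0.16), Ep400 (0.33 ± 0.12) and Kdm1a, a histone demethylase (0.32 ± 0.07). The lower one was Ehmt2, a histone H3 lysine methyltransferase (-0.56 ± 0.08, adjusted p = 8.88e-06). Trim28 (0.18 ± 0.08), Setdb1 (0.18 ± 0.08), Chaf1a (-0.18 ± 0.09) and Chaf1b (0.08 ± 0.08) were among the 10 that did not pass it.

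**Figure D4:**
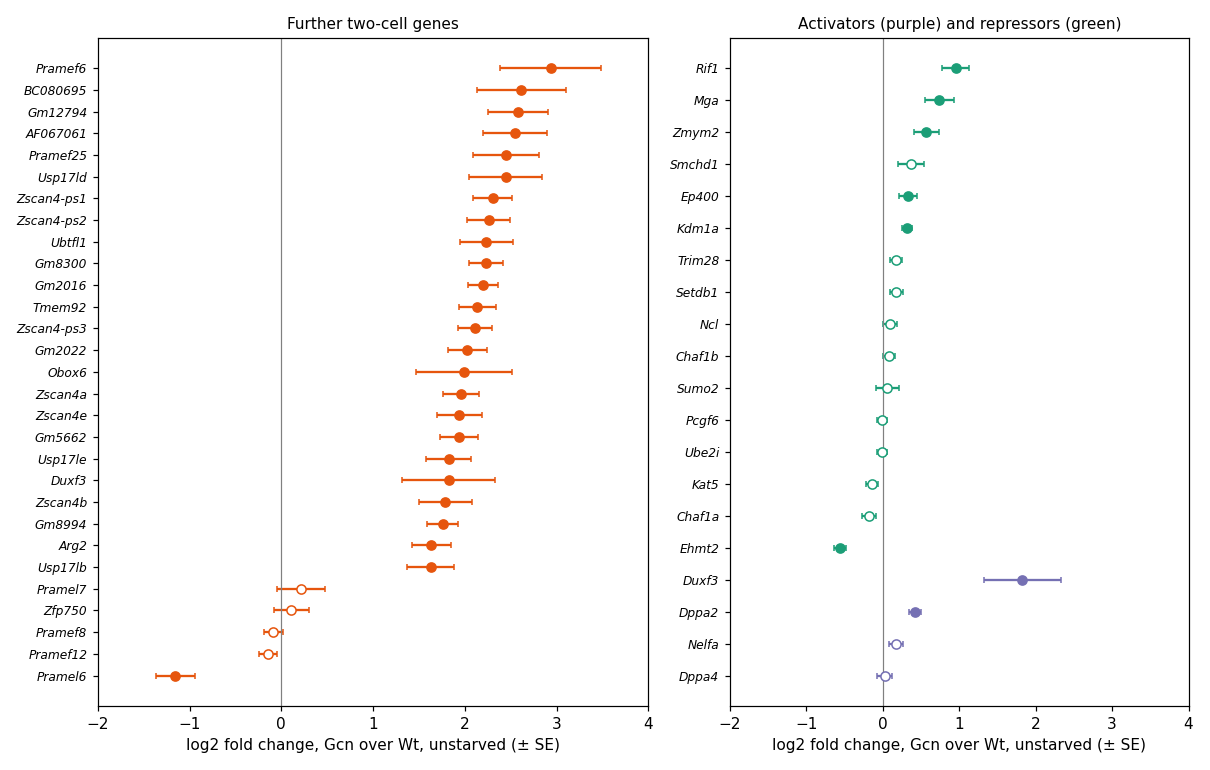
Log2 fold change of Gcn Unstarved over Wt Unstarved (x axis, ± SE) for the further two-cell genes (left) and for listed activators and repressors (right), 1 gene per line, with filled points at an adjusted p under 0.05. On the left 24 of 29 genes are filled above 0, 5 of which passed the filter only through the Gcn libraries, and Pramel6 (-1.16) is filled below it, while on the right Duxf3 (1.82) lies furthest from 0.

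Genes within 250 kb of a member, a window chosen after these values had been seen, were mostly too low to test: 14 of 182 passed the filter, 4 of them only through the Gcn libraries. Of the other 10, 6 were higher and 1 lower, where 16.6% of all genes tested were higher and 32.8% were called in either direction. The higher ones included Gm21761 (2.15 ± 0.16), Gm20767 (2.23 ± 0.19), Gm21818 (2.25 ± 0.20) and AF067061 (2.55 ± 0.35) near the Tcstv genes. Gm45551 (1.67 ± 0.35) near Zscan4f was also higher. All of these named genes share read windows with members near them, and the part of shared reads in their calls was not tested. The 4 that passed only through the Gcn libraries were BC147527 (1.90 ± 0.29), Gm9113 (2.95 ± 0.74), Gm5541 (1.98 ± 0.45) and, beside Zscan4d, Gm18204 (2.47 ± 0.93, adjusted p = 0.045). BC147527 shares read windows with Tcstv3, and Gm9113 and Gm5541 share them with Tdpoz4. Near the Tcstv genes, Hmgcs1, an enzyme of sterol synthesis, was higher by 0.38 ± 0.12 (adjusted p = 0.0235), Zfp131 (0.18 ± 0.09) and Nim1k (0.32 ± 0.31) did not pass the test, and S100a10 beside the Tdpoz genes was lower (-0.59 ± 0.10).

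Over the 18 libraries, the 5 genes of 15072 whose log2 CPM correlated best with the Zscan4 sum were Zscan4a, Zscan4-ps3, Gm2016, Gm21761 and Gm8300. Because the genotypes form separate clusters, correlations are given for deviations from the 6 group means, over the same 18 points and with no test, and libraries share their depth and scaling between genes. Zscan4a and Zscan4-ps3 also share read windows with the Zscan4 members, and the part of shared reads in these correlations was not tested. There the 5 leading genes were Zscan4a (r = 0.94), Zscan4-ps3 (0.92), Usp17lb (0.91), Gm2016 (0.91) and Gm10130 (0.90). Among the families, the Zscan4 sum followed the Usp17l sum with r = 0.69, the Tdpoz sum with 0.44, Zfp352 with 0.41 and the Tcstv sum with 0.23, and the Tcstv and Tdpoz sums had r = -0.08. Within each Gcn group the library numbered 2 had the lowest Zscan4 sum (39.7, 29.1 and 37.0 CPM in Unstarved, Arg and Leu) and the library numbered 3 the highest (54.0, 46.6 and 60.6 CPM).

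Starvation of Wt cells, a comparison the series text names, moved no member past the test. None of the 7 members tested was called with arginine starvation, where 40.9% of all genes were, and none with leucine starvation, where 29.6% were (edgeR). DESeq2 also called 0 in each, and 0 had an unadjusted p under 0.05. Zfp352, Tcstv1 and Tdpoz3 did not pass the filter in Wt, with at most 10, 3 and 13 counts per library. The Zscan4 sum stood at 7.97, 11.4 and 12.7 CPM in Wt Arg and at 9.72, 11.1 and 12 CPM in Wt Leu, overlapping the unstarved values of 9.58, 12.5 and 12.7 CPM. Its log2 change was -0.11 ± 0.16 with arginine starvation (adjusted p = 0.633) and -0.08 ± 0.16 with leucine starvation (adjusted p = 0.769). Of the single members, Usp17la had the largest changes, -0.45 ± 0.29 (adjusted p = 0.229) and -0.38 ± 0.29 (adjusted p = 0.356).

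Among the further two-cell genes, 5 of 24 tested fell with arginine starvation in Wt, against 20% of all genes, and 0 rose. They were Zfp750 (-1.29 ± 0.22), Tmem92 (-0.67 ± 0.23), Usp17lb (-0.61 ± 0.22), Gm8994 (-0.46 ± 0.16) and Gm5662 (-0.44 ± 0.13). With leucine starvation Zfp750 (-1.49 ± 0.23) and Gm8994 (-0.56 ± 0.16) fell, against 14.1% of all genes. Both comparisons share the 3 unstarved libraries. The count for arginine was 1 without Wt Unstarved 3, 3 without Wt Arg 1 and 2 without Wt Arg 2, and that for leucine was 1 without Wt Unstarved 3 or Wt Leu 1. The repressors Mga and Rif1 rose with starvation in Wt, Mga by 0.89 ± 0.11 (Arg) and 0.73 ± 0.11 (Leu) and Rif1 by 0.65 ± 0.13 and 0.54 ± 0.13, while Ehmt2 fell (-0.37 ± 0.07 and -0.24 ± 0.07).

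In Gcn cells, Tdpoz3 fell with both starvations. It had 58, 40 and 72 counts in Gcn Unstarved, 21, 19 and 11 in Gcn Arg, and 28, 17 and 49 in Gcn Leu, or 2.49, 1.5 and 2.76 CPM, 0.89, 0.75 and 0.70 CPM, and 1.00, 0.55 and 1.27 CPM. Every starved library lay below every unstarved one. The log2 change was -1.48 ± 0.32 with arginine starvation (adjusted p = 0.00363) and -1.24 ± 0.29 with leucine starvation (adjusted p = 0.00803), and both share the unstarved libraries. In Wt libraries the gene had 2 to 13 counts and was not tested. Of 9 members tested, Tdpoz3 was the only one called in either comparison in these fits, which do not use the replicate number. Of all genes, 13.7% were called lower with arginine starvation (28% in either direction) and 10% with leucine starvation (21.8% in either direction).

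The other members had smaller changes that did not pass the test in the fits without the replicate number. The largest were -0.62 ± 0.23 for Usp17lc with arginine starvation (adjusted p = 0.058) and -0.57 ± 0.25 for Usp17la with leucine starvation (adjusted p = 0.122). The Tdpoz sum fell from 4.86, 3.26 and 4.48 CPM in Gcn Unstarved to 2.7, 1.82 and 2.61 CPM in Gcn Arg (log2 -0.80 ± 0.25, adjusted p = 0.029) and to 2.22, 1.69 and 3.24 CPM in Gcn Leu (-0.81 ± 0.24, adjusted p = 0.0271). Only Gcn Leu 3, at 3.24 CPM, came close to the lowest unstarved library, at 3.26 CPM. These calls of the sum were lost with either Gcn Unstarved 1 or Gcn Unstarved 3 left out, for arginine also without Gcn Arg 2 or Gcn Arg 3, and for leucine without Gcn Leu 1 or Gcn Leu 2 (highest adjusted p = 0.118 and 0.161 over all alternatives). The Zscan4 sum stood at 37.6, 29.1 and 46.6 CPM in Gcn Arg (-0.32 ± 0.21, adjusted p = 0.286) and at 48.8, 37.0 and 60.6 CPM in Gcn Leu (0.02 ± 0.20, adjusted p = 0.965), overlapping the unstarved values in both.

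Deviations of same-numbered Gcn libraries correlated at 0.27 to 0.68, so a fit with the replicate number as a block was also read for Gcn. The pairing is not clear-cut, since differently numbered Gcn libraries reached 0.36. Gcn Unstarved 3 correlated better with Gcn Arg 2 (0.33) and Gcn Leu 2 (0.36) than with Gcn Arg 3 (0.27) and Gcn Leu 3 (0.28). With the replicate block, 4 members were lower with arginine starvation, against 24.2% of all genes: Tdpoz3 (-1.43 ± 0.23), Usp17lc (-0.62 ± 0.16, adjusted p = 0.00552), Zscan4d (-0.37 ± 0.07, adjusted p = 0.000538) and Zscan4c (-0.24 ± 0.10, adjusted p = 0.0472). The Zscan4 sum then fell by 0.33 on the log2 scale (SE 0.07, adjusted p = 0.000972) and the Usp17l sum by 0.46 (SE 0.12, adjusted p = 0.00524). In this blocked comparison the Zscan4 sum was lower in Gcn Arg than in Gcn Unstarved for each of the 3 numbers (49.9 to 37.6, 39.7 to 29.1 and 54.0 to 46.6 CPM). With leucine starvation 3 members were lower in the block fit, against 20.2% of all genes: Tdpoz3 (-1.25 ± 0.20), Usp17la (-0.58 ± 0.14, adjusted p = 0.00392) and Usp17lc (-0.39 ± 0.15, adjusted p = 0.0407). The Usp17l sum fell (-0.48 ± 0.11, adjusted p = 0.00283), and the blocked value of the Zscan4 sum was 0.00 ± 0.07 (adjusted p = 0.98). Tcstv3 did not pass the test in either block fit (-0.03 ± 0.13 and -0.02 ± 0.12).

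Of the further two-cell genes in Gcn, 2 of 29 tested fell with arginine starvation, against 13.7% of all genes, Ubtfl1 (-1.01 ± 0.31) and Zfp750 (-0.57 ± 0.15), and Pramef8 rose (0.36 ± 0.09). With leucine starvation Zfp750 fell (-0.74 ± 0.15), against 10% of all genes, and Pramef8 rose (0.35 ± 0.09). The rise of Pramef8 was not called without Gcn Unstarved 3 in either comparison, nor for leucine without Gcn Unstarved 2 or Gcn Leu 1, where 0 of the genes rose. With the replicate block, 14 fell and 1 rose with arginine starvation (24.2% of all genes fell), and 8 fell and 1 rose with leucine starvation (20.2% of all genes fell).

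Whether the starvation changes differed between genotypes was tested as an interaction, in which the Wt change is subtracted from the Gcn change. Of 9 members tested, 0 were called for arginine, where 2.3% of all genes were, and 0 for leucine, where 0.821% were (edgeR). DESeq2 also called 0 in each, and 1 member (Zfp352, arginine) and 0 members had an unadjusted p under 0.05. Zfp352 had interactions of -1.21 ± 0.53 (adjusted p = 0.244) and -1.06 ± 0.54 (adjusted p = 0.4). Its counts were 10, 7 and 10 in Wt Arg, 6, 7 and 7 in Wt Leu, 20, 15 and 17 in Gcn Arg, and 21, 24 and 34 in Gcn Leu. The values were -1.29 ± 0.66 (adjusted p = 0.341) and -0.54 ± 0.73 (adjusted p = 0.814) for Tdpoz3. For the Zscan4 sum they were -0.22 ± 0.30 (adjusted p = 0.794) and 0.08 ± 0.30 (adjusted p = 0.946).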

How the data were processed

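RNA-seq libraries (18, in 6 groups of 3) were grouped by the genotype and treatment in the labels. Per the submitters' processing notes, the reads were handled with STAR 2.7.4a and HTSeq on build GRCm38. Those notes also name FastQC 0.11.7, bcl2fastq, R 4.0.3, DESeq 1.30.1 and DESeq2. Not given in the sources used here are the annotation release, strand setting and rule for reads with several matches, so overlapping or antisense genes can share counts. The deposited tables hold whole-number counts per Ensembl gene, 1 table per genotype. The authors also deposited normalized tables, a signal equal to each count divided by 1 size factor per library, which entered no test. Of 55471 identifiers, 55144 had a symbol in GENCODE vM21.

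Tests were run in R 4.3.3 with edgeR 4.0.16, statmod 1.5.0 and limma 3.58.1: default filterByExpr, TMM scaling, robust quasi-likelihood F test and Benjamini-Hochberg adjustment over all genes tested, called at an adjusted p under 0.05. SEs were taken as the absolute log2 change over the root of F. Wt starvation used 9 libraries (16140 genes), Gcn starvation 9 (16369), and the genotype comparison and interactions all 18 (16924). For family sums, the rows of the listed family members were replaced by their sum and the whole table was refitted. Similar genes were those with a mean of at least 0.5 CPM and the 5 highest Pearson correlations with the Zscan4 sum (log2 CPM, prior count 2). The analysis was tested on simulated data with 200 changed genes.

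Members, lists and tests were chosen with earlier results of these data known. All members and families are named; further genes were named from fixed lists of 40 two-cell genes, 4 activators and 16 repressors. Titles number the replicates 1 to 3. Deviations of same-numbered libraries correlated at 0.27 to 0.68 in Gcn (9 of 9 pairs over 0.1) and at 0.064 to 0.46 in Wt (8 of 9, the exception being number 2 of Unstarved and Leu). In Gcn, differently numbered libraries reached 0.36, above the lowest same-numbered pair. With 0.1 required of every pair, the numbers were taken to pair the libraries in Gcn and in the Wt arginine comparison, and not in the Wt leucine comparison. The main fits did not use this pairing, and the replicate block was run as an alternative. No pair of libraries looked like repeats of 1 library (chi-square per degree of freedom 7.46 to 35.6 over 18 pairs). Alternatives were DESeq2 1.42.0, no filter, library size only, only the compared groups, a replicate block, each library left out, the 3 Gcn libraries numbered 1 left out, and wider family sums.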

Additional observations from a re-analysis of the deposited data

How the results depend on the processing

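The higher level in Gcn Unstarved held in every alternative run (up to 25 each) for the 7 members that pass the filter in Wt too. It also held for the Zscan4, Tcstv and Usp17l sums, and for the Tdpoz sum, which rests in part on Tdpoz3. Their log2 differences were 1.38 to 2.63, with a highest adjusted p of 0.00185, where 16.6% of all genes were higher in the main fit. Zfp352 and Tdpoz3, which passed the main filter only through the Gcn libraries, had log2 differences of 2.30 to 3.65, given as a description. Tcstv1 failed the main filter. Where an alternative tested Tcstv1 it was called except without Wt Unstarved 2, which adds nothing to the count, since it had at most 3 counts per Wt library. In Wt starvation and both interactions, 0 members and 0 family sums were called in all 14 and 24 alternatives. Tdpoz3 was called lower in Gcn in all 15 alternatives of either starvation (log2 -1.71 to -1.31 for arginine, -1.55 to -0.99 for leucine).

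Counts of calls with starvation in Gcn moved. For arginine, 2 members were called with DESeq2 and with only the compared groups, 3 with no filter and 4 with the replicate block, and family sums numbered 3 with no filter, 3 with the block, 0 with library size only and 0 without the 3 Gcn libraries numbered 1. For leucine, 2 members were called with no filter and 3 with the block, and family sums numbered 2, 2 and, without the libraries numbered 1, 0. With each library left out in turn, arginine gave 1 to 2 members and 0 to 1 sums, leucine 0 to 1 sums and 2171 to 3695 genes. Over all genes, the replicate block called 7602 (arginine) and 6651 (leucine). Interactions over all genes numbered 781 with DESeq2, 777 with no filter and 2505 with the block for arginine (187 to 525 with a library left out), and 377, 353 and 1878 for leucine (74 to 257). Further two-cell genes called with arginine starvation numbered 3 in Wt with DESeq2 (5 before) and, in Gcn, 12 with no filter and 15 with the block (3 before), and with leucine starvation in Gcn 9 with the block (2 before). In both interactions 1 was called with no filter and 1 with the block (0 before). The block changed no other call of a member in Gcn, and in Wt it left 0 members called with either starvation. For Wt leucine starvation 1 pair missed the pairing threshold of 0.1, although every same-numbered Wt correlation (lowest 0.064) lay above every other one (highest 0.020), a hint from the data and not the design.

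Of 1756 fold changes recomputed for members and sums, 91 values that no fit called changed sign (largest size 0.27), 0 of them between genotypes. The cause of the changed counts was not tested. Depth limits the lowest members: Tcstv1, Zfp352 and Tdpoz3 had at most 3, 10 and 13 counts per Wt library.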
